A study of Mus musculus with 6 samples.

Results

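MHC class II molecules and the invariant chain were examined as a group of 7 genes, H2-Aa, H2-Ab1, H2-Eb1, H2-DMa, H2-DMb1, Cd74 and Ciita, among the 18193 genes that had an array probe set of their own. A gene was represented by probe sets that the platform annotation pairs with that symbol alone, and where a gene had several, the one brightest on average across the 6 arrays was used. By this rule 6 of the 7 genes had a probe set and 5 were bright enough to test. H2-DMb1 had none, because the 2 probe sets that target it are also paired with the near-identical H2-DMb2, and Ciita had 3 probe sets that all stayed near the lowest value on every array.

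The arrays held RNA from whole livers of 6-week-old male C57BL/6 mice, with 1 Affymetrix array per mouse. The 3 KO mice carried a conditional knockout of p14 in the liver, and the 3 WT mice were controls labelled p14 WT. p14 is the product of Lamtor2, an adaptor protein on late endosomes and a subunit of the Ragulator complex. The promoter that drove the deletion and the cells that carried it are not given in the sources used here. Values are log2 expression levels made by the authors with GCRMA, and differences are KO minus WT on that scale. In whole liver, fewer cells of a type and less RNA per cell cannot be told apart.

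MHC class II molecules present peptides from endocytosed proteins to CD4 T cells. An alpha and a beta chain (H2-Aa with H2-Ab1, or H2-Ea with H2-Eb1) assemble with the invariant chain Cd74, which blocks the groove and steers the complex to late endosomes. There cathepsins trim Cd74, and H2-DM, made of H2-DMa and H2-DMb chains, exchanges the remaining fragment for peptide. In the liver Kupffer cells, dendritic cells, B cells and sinusoidal endothelium carry class II molecules, whereas resting hepatocytes have little. Transcription of these genes depends on the coactivator Ciita, which docks on factors bound to the X and Y boxes of class II promoters. Mice of the H2b haplotype, to which C57BL/6 belongs, do not transcribe H2-Ea and have H2-Eb1 without its partner.

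The promoters of H2-Aa and H2-Eb1 are shown because they hold the X and Y box letters through which class II genes are known to be controlled. Of the 7 genes 3 had a promoter entry with this pair, namely H2-Aa, H2-Eb1 and H2-DMb1. Of the others only H2-DMa was searched and lacked it, while H2-Ab1, Ciita and Cd74 were not searched. The sequences are from RefSeq (GRCm38.p6) and run 5′ to 3′ on the gene's strand. Each promoter spans 250 bases before and 50 bases after the annotated start. The capitals mark the X-box letters GNAAC and, 15 to 40 bases further on, the Y-box letters TGATTGG, which hold the CCAAT motif of NF-Y in reverse. The promoter of H2-Aa (chr17:34287774-34288073, minus strand) has its Y box 50 bases before the start, and that of H2-Eb1 (chr17:34305617-34305916, plus strand) 61 bases before it.
H2-Aa: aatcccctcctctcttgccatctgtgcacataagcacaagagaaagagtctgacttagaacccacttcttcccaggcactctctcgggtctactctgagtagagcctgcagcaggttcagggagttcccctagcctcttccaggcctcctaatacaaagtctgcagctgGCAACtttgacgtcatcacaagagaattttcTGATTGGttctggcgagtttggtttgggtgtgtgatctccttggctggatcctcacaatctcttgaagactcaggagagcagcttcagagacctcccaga
H2-Eb1: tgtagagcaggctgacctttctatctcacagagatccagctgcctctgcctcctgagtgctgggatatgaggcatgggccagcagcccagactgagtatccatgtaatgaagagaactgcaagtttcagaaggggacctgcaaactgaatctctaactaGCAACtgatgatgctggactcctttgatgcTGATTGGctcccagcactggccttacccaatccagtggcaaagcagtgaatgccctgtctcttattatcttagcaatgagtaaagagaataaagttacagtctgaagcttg

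The same pair of boxes stood in the promoters of H2-DMb1, H2-Oa and H2-Ob, and the stretch that holds them is given for comparison. H2-Oa and H2-Ob encode the chains of H2-O, an inhibitor of H2-DM in B cells.
H2-DMb1 (chr17:34153089-34153142, plus strand): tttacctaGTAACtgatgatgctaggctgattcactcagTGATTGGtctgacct
H2-Oa (chr17:34092295-34092348, plus strand): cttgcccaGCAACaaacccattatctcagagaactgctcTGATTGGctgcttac
H2-Ob (chr17:34238810-34238860, plus strand): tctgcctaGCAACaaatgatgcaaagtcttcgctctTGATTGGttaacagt

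From the first X-box letter to the first Y-box letter the distance was 31 bases in H2-Aa, H2-DMb1 and H2-Oa, 30 in H2-Eb1 and 28 in H2-Ob. Searched on both strands, the pair occurred in 0.682% of 32851 promoters and the Y-box letters alone in 7.82%. The letters were chosen with these promoters in view, so the shares describe how common the pair is and no more. The 2 promoters listed for H2-DMa held neither the pair nor the Y-box letters, and that of H2-DMb2 held the Y-box letters alone. For H2-Ab1 and Ciita the promoter table had no entry, and the promoter of Cd74 was not analysed here.

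On every array the liver identity was plain, with albumin (Alb) between 16.16 and 16.24 in KO and between 16.22 and 16.28 in WT. Between 43.52% and 43.89% of probe sets reached a log2 value of 4 on each array. Lamtor2, the targeted gene, measured 10.08, 10.19 and 10.11 in KO and 11.32, 11.29 and 11.35 in WT, a difference of -1.19 (limma, Benjamini-Hochberg adjusted p = 0.0104). That call was lost when KO 2 (limma adjusted p = 0.0691), WT 1 (0.114), WT 2 (0.114) or WT 3 (0.0505) was left out. WT 2 stood apart in skeletal muscle transcripts, with a mean of 10.98 over 10 markers against 2.41 to 2.55 on the other arrays. Mylpf, a myosin light chain and the 1 of these that passed the filter, measured 3.92, 4.08 and 4.01 in KO and 3.92, 12.41 and 4.15 in WT. KO 3 stood apart from KO 1 and KO 2 in macrophage markers, as given further on. The 18S rRNA control probes measured 9.24, 9.12 and 8.50 in KO and 8.24, 8.44 and 7.77 in WT, a difference of 0.80. Their part in the differences below was not tested.

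The comparison of KO with WT asks which transcripts differ between livers of p14 knockout mice and control livers. All 5 measured class II genes had a lower mean in KO livers, with a median difference of -0.95 against -0.04 over all 10009 genes tested. Cd74, H2-Aa and H2-Ab1 were at 46.1%, 51.6% and 46.5% of the WT signal, and no KO array overlapped a WT array for these 3. H2-Eb1 and H2-DMa were at 55.0% and 74.1%, with overlapping groups. None of the 5 passed an adjusted p under 0.05 over all genes. At that threshold limma called 0.17% of all genes, at an unadjusted p under 0.05 it found 10.1% of all genes lower in KO and 3 of these 5, and every KO array lay below every WT array for 14% of all genes and for 3 of these 5. A lower KO mean was found for 58.4% of all genes. All 5 lay above a log2 value of 4 on all 6 arrays, so that none entered the test through 1 group alone.

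Cd74, the invariant chain, measured 8.94, 9.36 and 9.57 in KO and 10.37, 10.25 and 10.60 in WT. All KO livers lay below all WT livers, and KO 1 was the lowest. The KO mean was 9.29 ± 0.32 and the WT mean 10.40 ± 0.18 (SD over 3 livers per group). The difference of -1.12 had a standard error of 0.19 and a 95% interval from -1.58 to -0.66, with an unadjusted p of 0.00113 and an adjusted p of 0.138 in limma. By unadjusted p it ranked 82 of 10009 genes, the first of the group.

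H2-Aa encodes the alpha chain of I-A, the class II molecule that C57BL/6 mice carry at the cell surface. It measured 9.65, 10.07 and 10.15 in KO and 10.64, 10.89 and 11.20 in WT. The groups were separate here too, with KO 1 lowest and WT 3 highest. The difference was -0.95 (standard error 0.19, 95% interval -1.44 to -0.47, limma adjusted p = 0.194).

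H2-Ab1, the beta chain that pairs with H2-Aa, measured 5.93, 6.71 and 7.11 in KO and 7.52, 7.71 and 7.83 in WT. The WT livers lay close together, with an SD of 0.16, and the KO livers were spread more widely, with an SD of 0.60. The difference was -1.10 (standard error 0.30, 95% interval -1.86 to -0.35, limma adjusted p = 0.252).

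H2-Eb1, the beta chain of I-E, measured 7.88, 8.12 and 7.31 in KO and 7.94, 8.84 and 9.11 in WT. KO 2 lay above WT 1, and KO 3 was the lowest array, unlike in the other genes. The difference was -0.86 (standard error 0.36, 95% interval -1.75 to 0.03, limma adjusted p = 0.348). It was -1.21 without WT 1, the array that overlapped, and -0.53 without both KO 3 and WT 2.

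H2-DMa, the alpha chain of the peptide exchanger H2-DM, measured 5.50, 6.39 and 6.30 in KO and 6.40, 6.39 and 6.69 in WT. KO 1 stood well below every other array, while KO 2 and WT 2 had the same value. The difference was -0.43 (standard error 0.26, 95% interval -1.07 to 0.20, limma adjusted p = 0.464), and it was -0.15 without KO 1.

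Ciita, the master coactivator, was at 2.26 on all 6 arrays with its brightest probe set and at 2.18 on all 6 with the other 2. These are values at or close to the lowest the processing gives, so no difference can be read for Ciita in either direction.

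**Figure D1:**
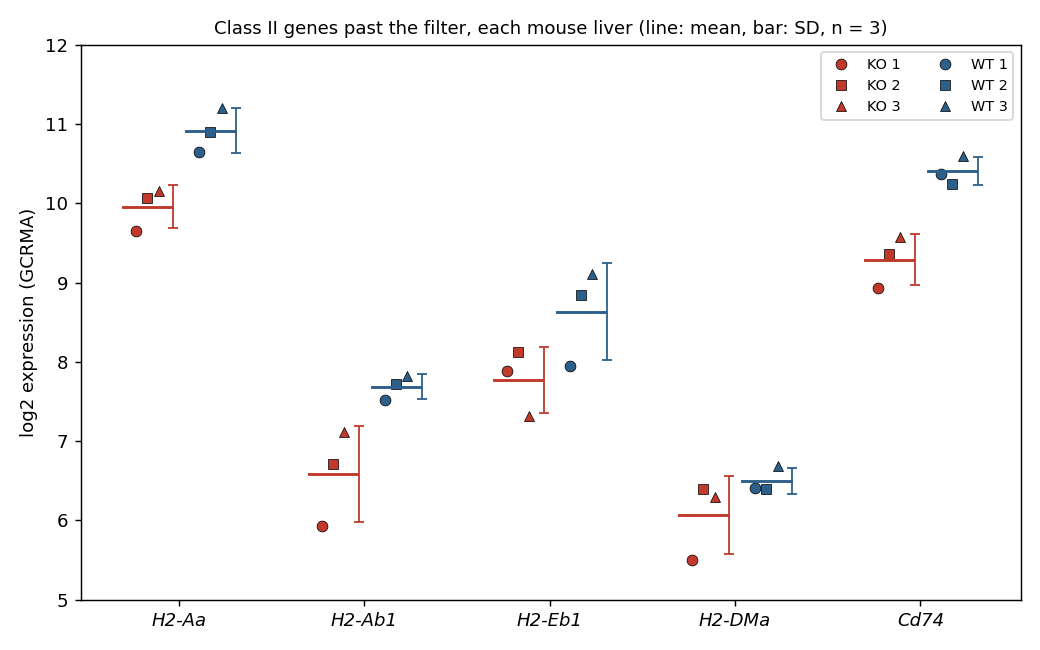
Log2 expression of the 5 class II genes past the filter in each liver, KO (red) left of WT (blue), with the group mean as a line and the SD as a bar (n = 3 each). KO and WT points are separate for H2-Aa, H2-Ab1 and Cd74 and overlap for H2-Eb1 and H2-DMa.

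The further bright probe sets of these genes also had a lower KO mean, but not all kept KO and WT arrays separate. Of the 14 probe sets with a single class II symbol from the group, 9 reached a log2 value of 4 on all 6 arrays. All 9 had a lower mean in KO, but only 4 of them are further sets, the rest being those used above. A lower KO mean was found for 58.4% of all genes, and the share over all probe sets was not counted. A second set for H2-Ab1 measured 5.95, 6.44 and 7.04 in KO and 7.78, 7.67 and 7.91 in WT, a difference of -1.31. Another differed by -0.62, and on it KO 3 and WT 2 had the same value. H2-Aa had a second set at 7.35, 7.38 and 8.83 in KO and 9.20, 8.61 and 8.79 in WT, where KO 3 lay within the WT range, with a difference of -1.01. Another set of H2-Aa differed by -0.58, with the same value on KO 3 and WT 1, and a dim set lay below 4 on every array. The other set of H2-DMa was also below 4 on every array, at 3.60 in KO and 3.63 in WT on average. The sets of 1 gene share its transcripts and are not replicates. The set used for H2-Aa is of the kind whose probes can match other transcripts.

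Across the 6 livers the genes shared part of their order. WT 3 was the highest array for 5 of the 5 genes, and KO 1 the lowest for 4 of the 5. The share of all genes with these placings was not counted, so they are not shown to be particular to class II genes. The 18S rRNA control probes were highest on KO 1 (9.24) and lowest on WT 3 (7.77), and their part in this order was not tested. KO 3 was the highest KO array for Cd74, H2-Aa and H2-Ab1. Set against the WT mean, H2-Eb1 stood at -0.75, -0.51 and -1.32 on KO 1, KO 2 and KO 3. Cd74 stood at -1.47, -1.05 and -0.83 on the same arrays. The lowest KO array was thus KO 3 for H2-Eb1 and KO 1 for Cd74.

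The 8 genes closest in pattern to the class II group were Col4a1, Dip2a, Rbl1, Ctc1, Epsti1, Mid1ip1, Cenpq and Zyx. Likeness was the root mean square difference over the 6 arrays between a gene's centred log2 values and the mean centred profile of the 5 genes. It was 0.09 for Col4a1, a collagen IV chain of basement membranes, and 0.16 for Zyx, the focal adhesion protein zyxin, the first and last of the 8. The class II genes themselves lay at 0.05 for H2-Aa, 0.17 for Cd74, 0.23 for H2-Ab1, 0.27 for H2-DMa and 0.39 for H2-Eb1. Col4a1 measured 9.35, 9.84 and 10.08 in KO and 10.40, 10.67 and 10.86 in WT. Epsti1, known as an interferon-responsive gene, measured 3.96, 4.58 and 4.67 in KO and 5.10, 5.58 and 5.46 in WT. Rbl1, a relative of the retinoblastoma protein, and Cenpq, a kinetochore protein, differed by -0.75 and -0.76. Since the group mean enters the measure, genes that differ between KO and WT by a like amount are favoured.

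Other chains of the class II family gave little signal. H2-Oa, H2-Ob and H2-Eb2 lay below 4 on every array. H2-DMb2 measured 4.27, 4.24 and 4.20 in KO and 4.24 on each WT array. H2-Ea, silent in the H2b haplotype, was at or near the lowest value with 2 of its 3 probe sets. Its remaining set measured 7.02, 6.58 and 6.58 in KO and 6.42, 6.58 and 6.58 in WT, with 4 arrays tied at the same value. Such ties occurred in 303 of the genes tested, so a value above 4 does not by itself show a transcript.

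**Figure D2:**
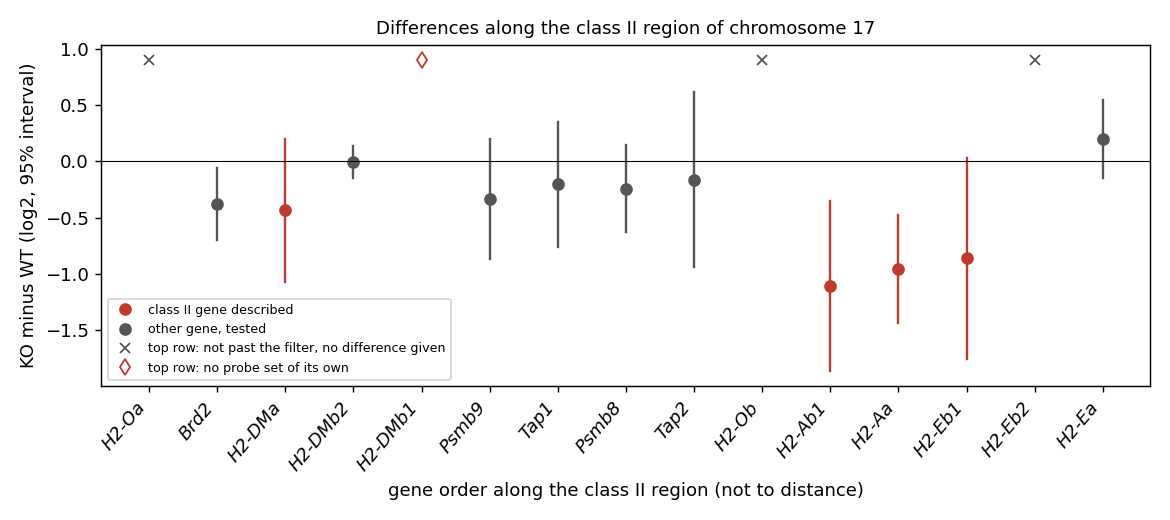
KO minus WT differences (log2, limma 95% intervals) of 15 genes in their order along the class II region of chromosome 17, from H2-Oa to H2-Ea, without distances. H2-Ab1, H2-Aa and H2-Eb1 lie at -1.10, -0.95 and -0.86, and the peptide transporter and immunoproteasome genes between them and H2-DMa lie from -0.33 to -0.16.

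The class II region also holds genes that serve MHC class I, which allowed neighbours to be set side by side. H2-Ab1, H2-Aa and H2-Eb1 are adjacent and had differences of -1.10, -0.95 and -0.86. Between H2-DMb1 and H2-Ob lie Psmb9 and Psmb8, subunits of the immunoproteasome, and Tap1 and Tap2, which form the peptide transporter. Psmb9 differed by -0.33, Psmb8 by -0.24, Tap1 by -0.20 and Tap2 by -0.16, and the 95% interval of each included 0. Brd2, a bromodomain protein of chromatin, differed by -0.38 (limma adjusted p = 0.304). Its KO arrays all lay below its WT arrays, as for 14% of all genes. Over 13 genes of class I presentation the median was -0.16, and 10 had a lower KO mean, against 58.4% of all genes. At an unadjusted p under 0.05, 1 of the 13 was lower (7.69%), against 10.1% of all genes. That median was -0.26 without KO 2, -0.06 without WT 2 and -0.09 with each array centred on its median. The 1 gene was Nlrc5, the class I counterpart of Ciita. Nlrc5 measured 6.78, 6.77 and 7.32 in KO and 7.49, 7.41 and 7.28 in WT, with KO 3 above WT 3. Tapbp, the loading factor tapasin, differed by -0.22 and Psmb10, a further immunoproteasome subunit, by -0.26. Whether the class I and class II lists differ was not tested.

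All 7 listed genes of the factors that act at class II promoters were measured, and their differences lay between -0.21 and 0.14. Their median difference was 0.00, with 4 lower and 3 higher, where 58.4% of all genes were lower. Of the 7 genes 0 had an unadjusted p under 0.05 or an adjusted p under 0.05 in limma. Rfx5, Rfxank and Rfxap, the 3 subunits of the X-box factor RFX, differed by 0.14, 0.00 and 0.09. Rfx5 measured 7.51, 7.92 and 7.72 in KO and 7.59, 7.64 and 7.50 in WT. For the NF-Y subunits Nfya, Nfyb and Nfyc, which bind the Y box, the differences were -0.20, 0.00 and -0.10. Creb1, which binds next to the X box, differed by -0.21, and its other sets above 4 on all arrays differed by -0.22 and 0.19. The plot of pathway differences gives the 95% interval of each, which for Rfxank ran from -0.72 to 0.73. With WT 2 left out, 2 of the 7 were lower at an unadjusted p under 0.05, against 9.39% of all genes.

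**Figure D3:**
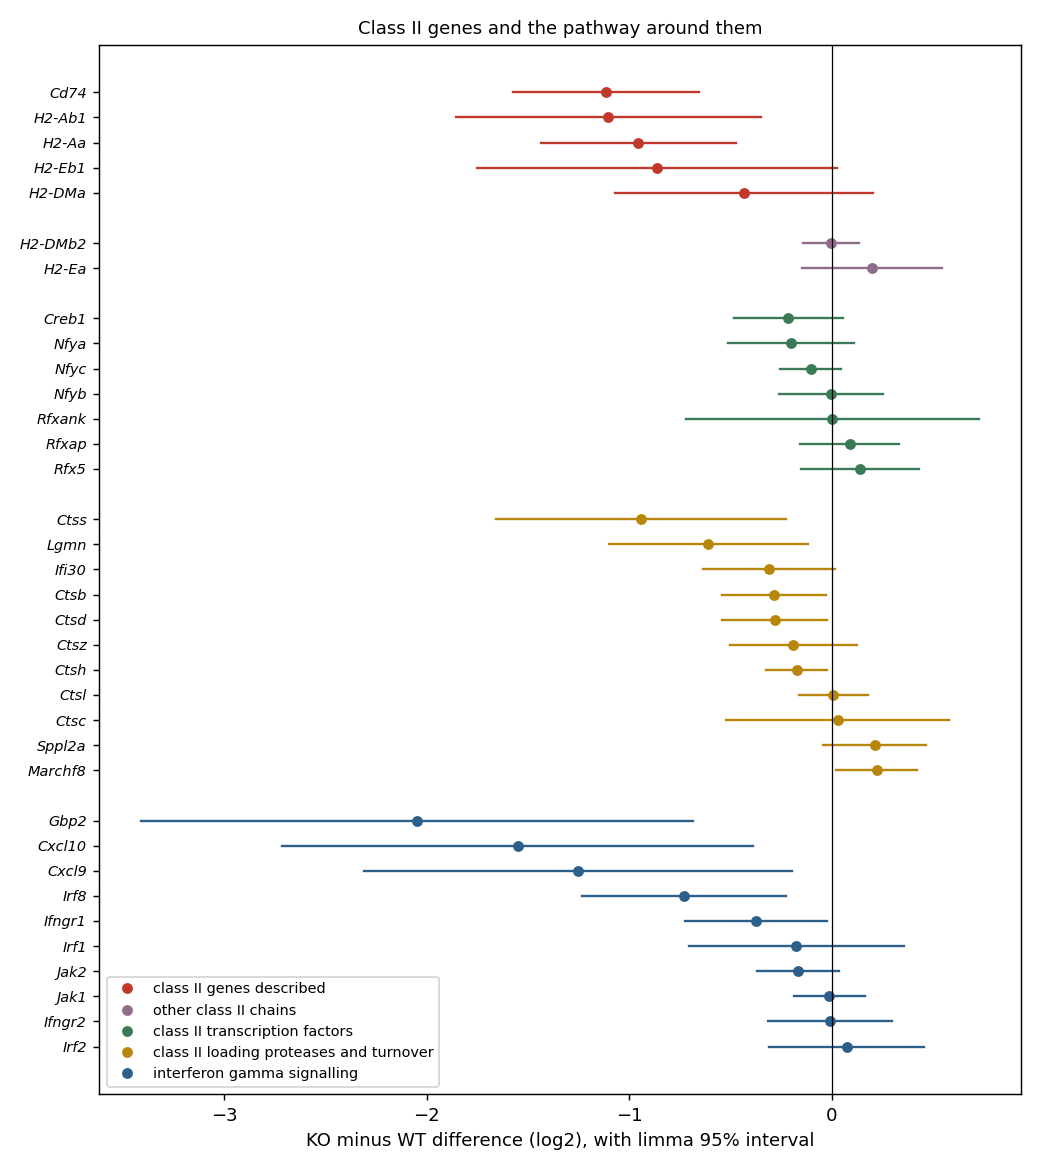
KO minus WT differences (log2) with limma 95% intervals for the class II genes, the other class II chains, their transcription factors, the proteases and turnover genes of the loading pathway and interferon gamma genes. Gbp2, Cxcl10 and Cxcl9 lie at -2.05, -1.55 and -1.25, Cd74 and H2-Ab1 at -1.12 and -1.10, and the transcription factors between -0.21 and 0.14.

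The list of loading and turnover genes held the endosomal enzymes that process Cd74 and antigens and the ligases that remove class II molecules. Of 11 measured genes 7 had a lower and 4 a higher KO mean, where 58.4% of all genes had a lower one. The median was -0.19, and it was -0.32 without KO 3 and -0.12 with each array centred on its median. At an unadjusted p under 0.05, 5 were lower, against 10.1% of all genes, and 1 was higher, against 4.32% of all genes. None passed over all genes in limma. With 1 array left out the 5 became 0 to 5. The count was 0 without WT 3, where 6.81% of all genes were lower at that level. It was 1 without KO 1 or WT 2 (7.24% and 9.39% of all genes) and 2 without KO 2 or WT 1 (8% and 6.7%). Ctss, cathepsin S, the protease that trims Cd74 in antigen-presenting cells, measured 9.66, 9.94 and 10.78 in KO and 10.96, 11.14 and 11.10 in WT. KO 3 lay close to the WT arrays and KO 1 and KO 2 well below, and the difference was -0.94 (limma adjusted p = 0.285). Without KO 3 it was -1.27 and passed (limma adjusted p = 0.0334), as did Lgmn (0.0471), in a setting where 1.4% of all genes passed. KO 3 was the KO array nearest to WT for both genes, so leaving it out favours these calls. Lgmn, the asparaginyl endopeptidase legumain, differed by -0.61 with the same separation of KO 3. Ctsb, Ctsd and Ctsh, lysosomal cathepsins of many cell types, differed by -0.28, -0.28 and -0.17. Ctsl, which does the work of Ctss in thymic epithelium, was at 14.43 in KO and 14.42 in WT.

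Ifi30, the lysosomal thiol reductase GILT, differed by -0.31 with KO below WT on every array. That placing held for 5 of the 11 measured genes of this list, against 14% of all genes. Marchf8, a ubiquitin ligase that removes class II molecules from the cell surface, measured 10.70, 10.51 and 10.52 in KO and 10.43, 10.34 and 10.29 in WT. It was the 1 gene of this list with every KO array above every WT array, where 6.54% of all genes were so placed, and its difference was 0.22 (limma adjusted p = 0.320). Sppl2a, the membrane protease that clears the last fragment of Cd74, differed by 0.21 with overlapping groups. Marchf1, the ligase of dendritic and B cells, lay below 4 on every array. Of 6 listed costimulation genes only Cd86 passed the filter, at 4.52, 3.94 and 5.74 in KO and 5.05, 5.64 and 5.29 in WT, with overlapping groups.

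Interferon gamma is the classical inducer of Ciita, and genes of its pathway were set beside the class II genes. Ifng itself was at the lowest value on every array. Of 10 measured genes of the list 9 had a lower KO mean, where 58.4% of all genes did. At an unadjusted p under 0.05, 5 were lower, against 10.1% of all genes, and 0 passed over all genes in limma. The 5 became 2 without WT 1, where 6.7% of all genes were lower at that level. They became 3 without KO 2 or WT 2, where 8% and 9.39% of all genes were. Gbp2, an inducible GTPase, measured 5.23, 6.93 and 7.19 in KO and 8.68, 8.78 and 8.04 in WT. The chemokine Cxcl9 measured 8.58, 9.76 and 10.14 in KO and 10.74, 11.09 and 10.41 in WT, and Cxcl10 measured 6.06, 6.60 and 7.65 in KO and 8.61, 8.64 and 7.71 in WT. In all 3 KO 1 was the lowest array and KO 3 the highest KO array, as for Cd74. Irf8, a transcription factor of myeloid cells, differed by -0.73 and the receptor chain Ifngr1 by -0.37, whereas Jak1, Ifngr2 and Irf1 differed by -0.01, -0.01 and -0.18.

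Markers of the macrophages and endothelial cells that carry class II molecules were also lower on average in KO livers. All 20 macrophage markers had a lower KO mean, where 58.4% of all genes did, with a median of -0.86. At an unadjusted p under 0.05, 13 were lower, against 10.1% of all genes, and 0 passed over all genes in limma. The 13 became 5 when KO 2 or WT 2 was left out, 6 when KO 1 was, 7 when WT 1 was and 9 when WT 3 was. In the same order, 8%, 9.39%, 7.24%, 6.7% and 6.81% of all genes were lower at that level. Without KO 3, 19 were at that level, where 12.2% of all genes were. In that setting 10 of the 20 passed over all genes in limma, where 1.4% of all genes did. Of the 5 class II genes 0 passed, and Cd74 came closest (difference -1.26, limma adjusted p = 0.0585). KO 3 was the KO array nearest to WT in the median of these markers (-0.19), so leaving it out favours such calls. For the class II genes that median was -0.76 on KO 3, so the contrast with them is no separate evidence. The mean level of the 20 markers ranged from 7.83 to 9.09 on the KO arrays and from 9.32 to 9.45 on the WT arrays. Marco, a scavenger receptor of macrophages, measured 4.41, 5.53 and 6.53 in KO and 8.99, 8.08 and 7.62 in WT, a difference of -2.74 with separate groups (limma adjusted p = 0.208). The myeloid lysozyme Lyz2 differed by -1.13, the macrophage-secreted Cd5l by -1.01 and the pore-forming Mpeg1 by -0.67, each with every KO array below every WT array. That placing held for 10 of the 20 markers, against 14% of all genes. Adgre1, an adhesion receptor of tissue macrophages, measured 8.18, 8.11 and 9.15 in KO and 9.23, 9.47 and 9.33 in WT, and Clec4f, a Kupffer cell lectin, differed by -0.74.

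Sinusoidal endothelial markers had a median of -0.35 over 12 genes, 10 of them with a lower KO mean, against 58.4% of all genes. The number lower at an unadjusted p under 0.05 was 4, against 10.1% of all genes. Their mean level was 8.77 to 9.24 in KO and 9.36 to 9.48 in WT. The median was -0.23 without KO 1, and the 4 became 7 without KO 3, where 12.2% of all genes were lower at that level. Cdh5, the endothelial cadherin, differed by -0.68, the angiopoietin receptor Tek by -0.45 and the scavenger receptor Stab1 by -0.38, with separate groups in each. KO lay below WT on every array for 6 of the 12 markers, against 14% of all genes. Lyve1, a hyaluronan receptor, was the 1 marker of this list that passed the test over all genes (difference -1.32, limma adjusted p = 0.0353), and it did not when KO 1, KO 2, WT 1, WT 2 or WT 3 was left out.

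Most defining markers of dendritic cells and lymphocytes stayed below the filter. Of dendritic cell markers 8 of 11 were below 4 on every array, among them Itgax, Xcr1, Cd209a and Siglech. Of B cell markers 7 of 10 were, among them Ms4a1 and Cd79a, and of T and NK cell markers 8 of 10, among them Cd3e and Cd8a. Over the 3 B cell markers past the filter the mean level was 5.48 to 6.00 in KO and 5.40 to 5.63 in WT, with differences of 0.07 for Ighm, 0.22 for Cd79b and 0.17 for Bank1 and overlapping groups in each. Of the 3 dendritic cell markers past the filter Zbtb46 and Batf3 averaged 5.57 and 5.80 in KO and 5.54 and 5.92 in WT. The remaining one, Cst3, the protease inhibitor cystatin C that many cell types make, averaged 12.02 in KO and 12.26 in WT (difference -0.24, limma adjusted p = 0.338). Its KO arrays all lay below its WT arrays, as for 14% of all genes. Cd4 and Prf1, the 2 T and NK cell markers past the filter, had 5 and 6 of the 6 arrays tied. In whole-liver RNA this does not show that such cells were missing. Of 9 neutrophil and monocyte markers 4 passed the filter, with overlapping groups in each. The differences were 0.42 for S100a8, 0.37 for S100a9, -0.10 for Csf3r and 0.02 for Ccr2. Csf3r and Ccr2 had 4 and 5 of the 6 arrays tied, Ighm had 4 and Batf3 had 3. The small differences of these tied genes therefore do not show that their transcripts were unchanged. Hepatocyte markers had a median of -0.05, with -0.20 for the transcription factor Hnf4a, 0.24 for each of the enzymes Tat and Pck1 and -0.10 for Cps1. The part of cell composition in the class II differences was not tested.

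Each class II gene was then read relative to the mean of the 20 macrophage markers on the same array, with the WT mean set to 0. For Cd74 the relative values were 0.10, 0.07 and -0.53 in KO and -0.05, -0.22 and 0.26 in WT. KO 1 and KO 2 thus lay within the WT range and KO 3 below it. The difference was -0.12 and the exact two-sided permutation p was 0.7, where 0.1 is the smallest that 3 against 3 arrays allow. With the median of the markers in place of their mean it was -0.64, with an exact permutation p of 0.1. Against the marker mean the differences were 0.04 for H2-Aa, -0.11 for H2-Ab1, 0.13 for H2-Eb1, 0.56 for H2-DMa and -0.12 for Cd74. Their exact permutation p values were 1, 0.5, 0.8, 0.2 and 0.7, each 1 after Benjamini-Hochberg adjustment over the 5 genes. The reference is the same for every gene, so with the marker median each difference would be lower by the same amount as for Cd74. With so few arrays these values do not show that class II genes and macrophage markers differ by the same amount.

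By the median distance from the WT mean, the class II genes and the macrophage markers lay furthest apart on KO 3. There it was -0.76 for the class II genes and -0.19 for the macrophage markers. On KO 1 it was -1.26 for the class II genes and -1.30 for the macrophage markers, and on KO 2 -0.84 and -1.09 in the same order. H2-Eb1 was furthest from the marker mean on KO 3, with a relative value of -1.02, against 0.81 and 0.61 on KO 1 and KO 2. H2-DMa was instead closest to the marker mean on KO 3, at 0.10, against 0.57 and 1.02 on KO 1 and KO 2. The contrast of KO 3 with the other KO livers rests on 1 liver and has no test.

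**Figure D4:**
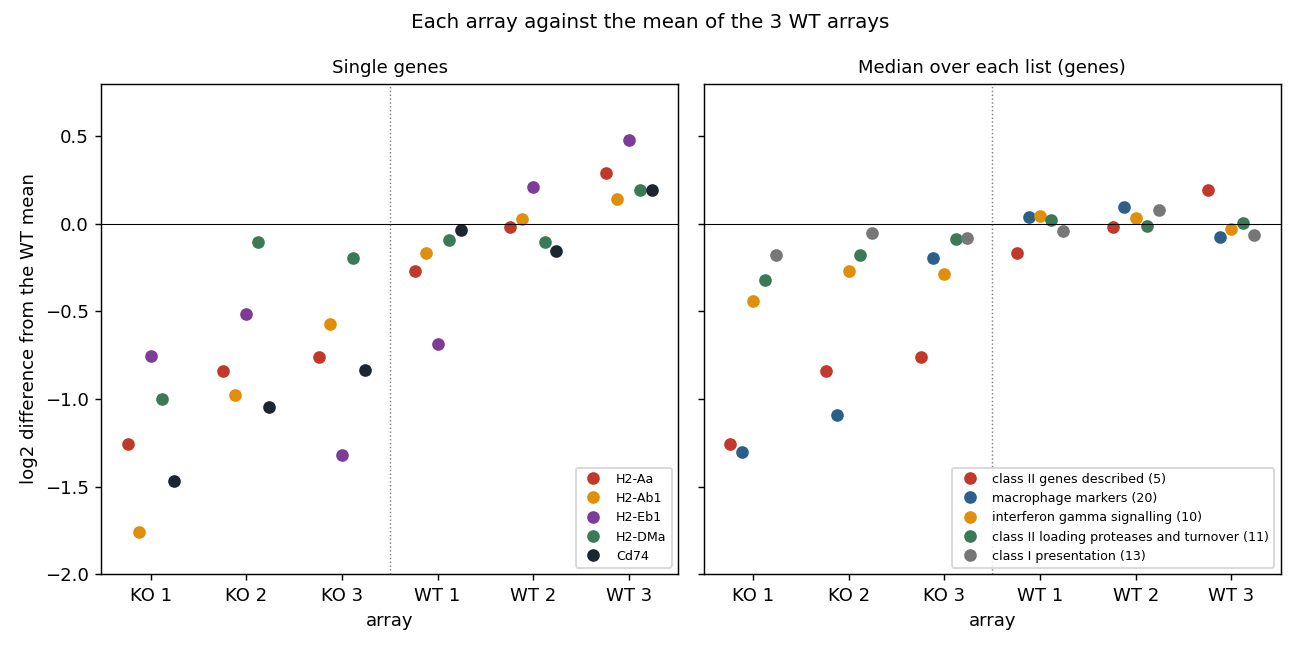
Distance of each array from the mean of the 3 WT arrays (log2), on the left for the 5 class II genes and on the right as the median over each list, KO arrays left of WT arrays. On KO 3 the class II median is -0.76 and the macrophage median -0.19, whereas on KO 1 they are -1.26 and -1.30.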

How the data were processed

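Livers of 6 mice were measured on 1 array each. The authors deposited log2 values per probe set. The submitters' processing notes name GCRMA 2.16.0 under R 2.9.1; other settings are not given in the sources used here, and the log2 scale was inferred from the values. GCRMA compresses dim probe sets to a lowest value and can leave tied values. Of 45101 probe sets, 34945 had 1 symbol, and those with several (932) named no gene. A gene was tested when 3 or more arrays reached 4 on the log2 scale (10009 genes). KO and WT were compared with limma 3.58.1 in R 4.3.3 (lmFit, eBayes, no covariates, Benjamini-Hochberg over all genes, threshold 0.05), and relative values with exact two-sided permutation tests. The gene test was tested on simulated data. No depth applies to arrays; their number limits the precision. All 7 genes, all class II chains and promoter factors, and up to 4 genes per other list with the smallest p were named; other genes named were chosen after their values were seen. The members and lists were chosen with earlier results of these data known. The check given in the closing section showed no pairing of the samples by replicate number, but cannot exclude one. Figures were drawn with matplotlib 3.10.9.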

Additional observations from a re-analysis of the deposited data

How the results depend on the processing

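All 5 class II genes stayed lower in KO under each of the 18 alternatives (filters, floor, normalisations, probe set rules, variance models, array weights, block and arrays left out), and 0 passed over all genes in any. At an unadjusted p under 0.05 the count was 3 to 4. With 1 array left out, 6.7% to 12.2% of all genes were lower at that level. The difference ranged from -1.34 to -0.94 for Cd74 (adjusted p 0.0585 to 0.408), from -1.09 to -0.80 for H2-Aa, from -1.37 to -0.78 for H2-Ab1, from -1.21 to -0.53 for H2-Eb1 and from -0.60 to -0.15 for H2-DMa. The number of genes called over the whole table, 17, was 3 with no filter, 3 with an ordinary two-sample test, 3 with KO 3 and WT 2 both left out, and 1 to 140 with 1 array left out. With the replicate block it was 0, and Lamtor2 had a limma adjusted p of 0.116. The same-numbered KO and WT arrays deviated from their group means with correlations of -0.09, -0.08 and -0.14 across genes. This check showed no pairing by number, but with 3 arrays per group it cannot exclude one. Cd74 relative to macrophage markers was -0.64 with their median, and -0.23 to 0.08 with 1 array left out; leaving out KO 3 or WT 3 made it positive. Over the same 18 alternatives the list medians ranged from -0.32 to -0.12 for loading and turnover genes, from -0.38 to -0.17 for interferon gamma genes, from -0.26 to -0.06 for class I presentation, from -1.20 to -0.62 for macrophage markers and from -0.13 to 0.06 for the promoter factors, which changed sign. The cause of these shifts was not tested.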
